A study of Mus musculus with 10 samples.

Results

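Expression of 8 genes of the voltage-gated sodium channel complex was examined in the embryonic mouse heart: the alpha subunits *Scn4a* and *Scn8a*, the beta subunits *Scn2b*, *Scn3b* and *Scn4b*, the fibroblast growth factor homologous factors *Fgf12* and *Fgf13*, and the modulator *Gpd1l*. They were chosen by gene symbol as subunits and known regulators of the channel, and all 8 were found among the 23195 genes of the deposited table. The libraries were prepared from polyA RNA of hearts of male C57BL6/J embryos at embryonic day 13.5, of which 5 were wild type and 5 were homozygous for a constitutive *Nos1ap* null allele. The null allele lacks exon 4, which was deleted by crossing to CMV-Cre mice, and carriers of the allele were then intercrossed. The deletion is thus inherited and present in every tissue, so the comparison is of whole hearts from embryos that lack the gene everywhere. *Nos1ap* encodes an adaptor of neuronal nitric oxide synthase and lies at a locus known for its association with the human QT interval. The comparison addresses whether its loss changes heart gene expression before birth. Whether the embryos were littermates is not stated in the sources used here, so the p-values measure only the spread among these 10 libraries.

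Voltage-gated sodium channels carry the inward current that starts the action potential of heart muscle, nerve and skeletal muscle. The alpha subunit forms the pore, and beta subunits, which cross the membrane once and carry an immunoglobulin-like domain outside the cell, alter its gating and its delivery to the surface. Fibroblast growth factor homologous factors are not secreted as the classical growth factors are. They bind the intracellular tail of the alpha subunit and shift its inactivation. The enzyme encoded by *GPD1L* resembles glycerol-3-phosphate dehydrogenase and alters the current through the channel. Variants in several of the human genes have been reported in inherited arrhythmias.

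Between 11328200 and 14023000 read pairs per library fell on genes, as estimated from the group means. The table holds a mean normalized count per genotype, and the whole counts of single libraries were recovered from the digits of these means for 20093 genes. Within a genotype the libraries are numbered from 1 to 5 by falling size factor, which is not the replicate number of the labels. *Nos1ap* was at 126 to 161 normalized counts in the wild-type libraries and at 31.1 to 44.4 in the null libraries, with no overlap (exact permutation *P* = 0.00794, the smallest that 5 against 5 libraries allow). Wild-type library 3 stood apart from the other 9 libraries. The 13 neuronal markers with recovered counts summed to 5618 normalized counts in it and to 205 to 275 elsewhere, and each of the 13 was highest there. Glial markers summed to 422 against 113 to 158, with 4 of 5 highest there, and skeletal muscle markers to 193 against 23.8 to 54.8, with 7 of 8 highest there. Cardiac contractile genes were abundant in both genotypes, as the authors' means of *Myh7* (128162 and 129864) and *Tnnt2* (37532 and 37652 normalized counts in wild type and null) show.

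None of the 8 genes differed between the genotypes by more than the spread between libraries. The test was limma on log2(normalized count + 1) over 12468 protein-coding genes, and a gene was called at a false discovery rate of 1% with an absolute log2 fold change over 1. No sodium channel gene was called, against 0.0241% of all genes tested. The limma adjusted *P* was 0.997 for each of them, and 0 of 8 had an unadjusted *P* under 0.05 by limma or by voom, against 3.64% of all genes. In no case did the 5 wild-type and 5 null values separate, which they did for 0.778% of all genes. Of the 8, 6 had a log2 fold change below 0, against 52.9% of all genes, and their median was -0.11, against -0.0067 over all genes. Without wild-type library 3 the median was 0.021, against 0.00051 over all genes. In that fit 4 of 8 were below 0, against 6204 of all 12468 genes. Again 0 of 8 had an unadjusted limma *P* under 0.05, against 3.57% of all genes. A miss of the threshold does not show equal expression. For 5 genes (*Scn4a*, *Scn2b*, *Fgf12*, *Fgf13* and *Gpd1l*) the 95% interval lay within a log2 fold change of 1 in either direction, and for *Scn8a*, *Scn3b* and *Scn4b* it did not.

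**Figure D1:**
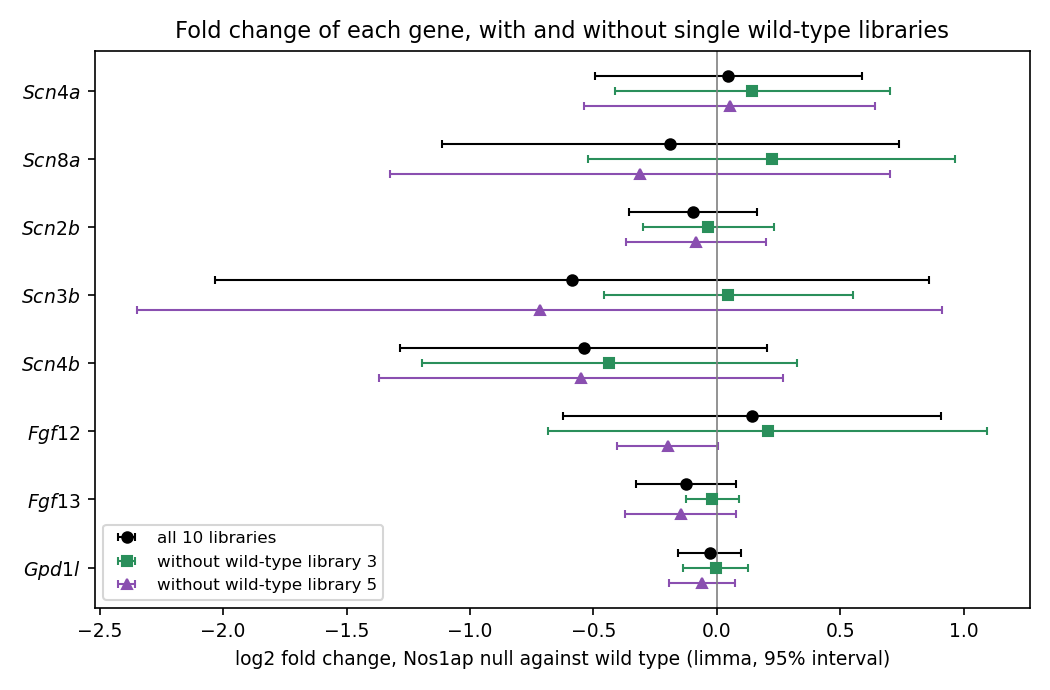
Log2 fold change of each gene in *Nos1ap* null against wild-type hearts with its 95% interval from limma, for all 10 libraries (circles) and without wild-type library 3 (squares) or 5 (triangles). All intervals with 10 libraries include 0, the widest being that of *Scn3b* (-2.03 to 0.86) and the narrowest that of *Gpd1l* (-0.16 to 0.098).

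The levels of the 8 genes within the heart spanned a 206-fold range. They were compared as mean normalized counts per kilobase of exon over all 10 libraries, with exon lengths from GENCODE M21. *Fgf13* was the most abundant at 133, above 75.0% of protein-coding genes, and *Gpd1l* followed at 93.8, with every library of the first above every library of the second. *Fgf12* (16.9) and *Scn2b* (16.1) came next, with overlapping ranges and *Fgf12* higher in 7 of 10 libraries. Their order depends on the length chosen, since per kilobase of the longest annotated transcript *Fgf12* was at 25.3 and *Scn2b* at 16.1, with *Fgf12* higher in 9 of 10 libraries. *Scn3b* was at 5.60 on this scale, a mean raised by wild-type library 3. Its median over the libraries was 3.28, and without that library it ranged from 2.23 to 4.08, below the lowest *Scn2b* value of 14.1. *Scn4a* (1.81) and *Scn4b* (1.74) could not be ordered either, since each was higher in 5 of 10 libraries. *Scn8a* was lowest at 0.645, with a median of 0.415. Among the beta subunits *Scn2b* was above *Scn3b* in 9 of 10 libraries. *Scn3b* was above *Scn4b* in 9 of 10 as well, but their ranges overlapped.

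**Figure D2:**
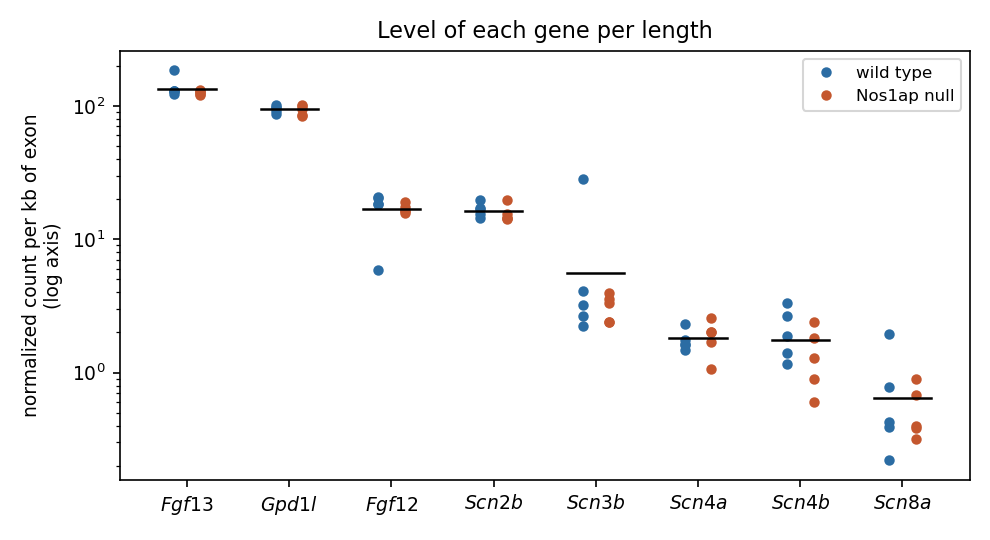
Normalized counts per kilobase of exon on a log axis, with a point for each library (blue, wild type, and orange, *Nos1ap* null) and a line at the mean of all 10. Points of both genotypes overlap for every gene, and the levels fall from 133 for *Fgf13* to 0.645 for *Scn8a*, with single wild-type libraries off the rest for *Scn3b* (high) and *Fgf12* (low).

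*Scn4a* (ENSMUSG00000001027.7, chr11:106318592-106353288, minus strand, GRCm38) encodes the main alpha subunit of skeletal muscle. It was read at 10 to 16 counts in the wild-type libraries and at 7 to 20 in the null libraries. The means were 12.4 ± 2.30 and 13.1 ± 3.82 normalized counts (SD, n = 5 each), and the null range, from 7.52 upwards, enclosed the wild-type range of 10.3 to 16.3. The log2 fold change was 0.046 (SE 0.261, limma adjusted *P* = 0.997, exact permutation *P* = 0.738). With counts this low, sampling alone gives a coefficient of variation of 28.2% in wild type and 27.8% in null, and the observed values were 18.6% and 29.1%. In wild-type library 3, where skeletal muscle markers were high, *Scn4a* stood at 16.3, the highest wild-type value and 1.43 times the mean of the other 4, and below the highest null library. Without it the log2 fold change was 0.14, and the part of the skeletal muscle transcripts in this was not tested.

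*Scn8a* (ENSMUSG00000023033.14, chr15:100869858-101045938, plus strand) encodes an alpha subunit found at nodes of Ranvier and axon initial segments. The wild-type libraries 1 to 5 held 3.48, 6.78, 30.5, 12.4 and 6.21 normalized counts. The null libraries held 6.30, 5.03, 6.05, 10.7 and 14.2. The lowest and the highest of the 10 values were therefore both wild type, and 1 library accounts for the width of the wild-type range. The means were 11.9 ± 10.9 and 8.45 ± 3.87 (SD, n = 5 each), with a log2 fold change of -0.19 (SE 0.439, limma adjusted *P* = 0.997, exact permutation *P* = 0.683). Without wild-type library 3 the log2 fold change turned to 0.22 (95% interval -0.52 to 0.97). Neuronal markers were 20.4 times their next highest sum in that library, and their part in the *Scn8a* value was not tested.

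Among the beta subunits, *Scn2b* (ENSMUSG00000070304.11, chr9:45117782-45130070, plus strand) had the highest level per kilobase. Its normalized counts were 71.3, 66.8, 91.6, 78.4 and 79.7 in wild-type libraries 1 to 5. In the null libraries they were 65.7, 67.4, 91.7, 66.6 and 71.9. The highest value of each genotype was nearly the same, and the groups overlapped throughout. The means were 77.6 ± 9.45 and 72.7 ± 10.9 (SD, n = 5 each), a log2 fold change of -0.096 with a 95% interval of -0.35 to 0.16 (limma adjusted *P* = 0.997, exact permutation *P* = 0.468). On the linear scale the interval spans a fold of 0.782 to 1.12. The log2 fold change was -0.035 without wild-type library 3 and -0.18 without null library 3, the libraries with the highest value of each genotype. The spread was near that of sampling alone, with coefficients of variation of 12.2% in wild type and 15.05% in null against 11.3% and 11.8%.

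*Scn3b* (ENSMUSG00000049281.15, chr9:40269217-40291618, plus strand), a beta subunit of brain and heart, held 12.2, 22.3, 154, 14.4 and 17.6 normalized counts in wild-type libraries 1 to 5. The null libraries held 21.6, 13.1, 13.1, 18.3 and 19.6. One wild-type library was thus far above all others, and the other 9 lay between 12.2 and 22.3. The means were 44.0 ± 61.4 and 17.1 ± 3.87 (SD, n = 5 each), and the difference was within the spread (log2 fold change -0.59, SE 0.637, limma adjusted *P* = 0.997, exact permutation *P* = 0.587). Without wild-type library 3 the log2 fold change was 0.046 with an interval of -0.46 to 0.55. In that library *Scn3b* was 2.73 above the next library on the scale of log2(normalized count + 1). Among 10226 protein-coding genes with a mean of at least 10 normalized counts, this was the 50th largest upward gap in that library. Neuronal marker transcripts were high there as well, such as *Prph* (585 normalized counts against at most 12.1 elsewhere). Whether more cells of a type or more RNA per cell gave the higher values cannot be told apart in whole-heart RNA.

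*Scn4b* (ENSMUSG00000046480.5, chr9:45138395-45154152, plus strand) encodes a beta subunit that is linked to the alpha subunit by a disulfide bond, as the *Scn2b* product is. Both genes lie side by side on the same strand, with 8324 bases between them, and per kilobase the level of *Scn4b* was the lower by far. Wild-type libraries 1 to 5 held 6.96, 5.81, 13.2, 16.5 and 9.31 normalized counts, and null libraries held 4.50, 9.05, 3.02, 6.44 and 11.98. The 2 lowest values were null and the 2 highest were wild type, but the other 6 values were mixed. The means were 10.4 ± 4.46 and 7.0 ± 3.58 (SD, n = 5 each). The log2 fold change of -0.54 was not beyond the spread (SE 0.358, 95% interval -1.28 to 0.20, limma adjusted *P* = 0.997, exact permutation *P* = 0.214). It was below 0 in all 10 fits that left out a library, from -0.74 to -0.32. On the scale of the fit, normalized count + 1, the interval runs from a fall to 0.411 to a rise to 1.15 times wild type. At 3 to 16 counts a library the added 1 matters, and a fall, no change and a small rise were not told apart.

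As a share of the beta subunit counts per kilobase of these 3 genes, *Scn2b* made up 68.8% ± 16.9 in wild type and 77.2% ± 5.68 in null (SD, n = 5 each, exact permutation *P* = 0.413). *Scn3b* made up 22.9% ± 18.7 and 15.7% ± 4.07 (exact permutation *P* = 0.675, n = 5 each). *Scn4b* made up 8.31% ± 3.69 and 7.04% ± 3.50 (exact permutation *P* = 0.603, n = 5 each). The order was *Scn2b*, *Scn3b* and *Scn4b* in all 5 null libraries and in wild-type libraries 1, 2 and 5. In wild-type library 3 *Scn3b* was ahead, with 55.8% against 39.0% for *Scn2b*, and in wild-type library 4 *Scn4b* (14.5%) was above *Scn3b* (11.6%).

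**Figure D3:**
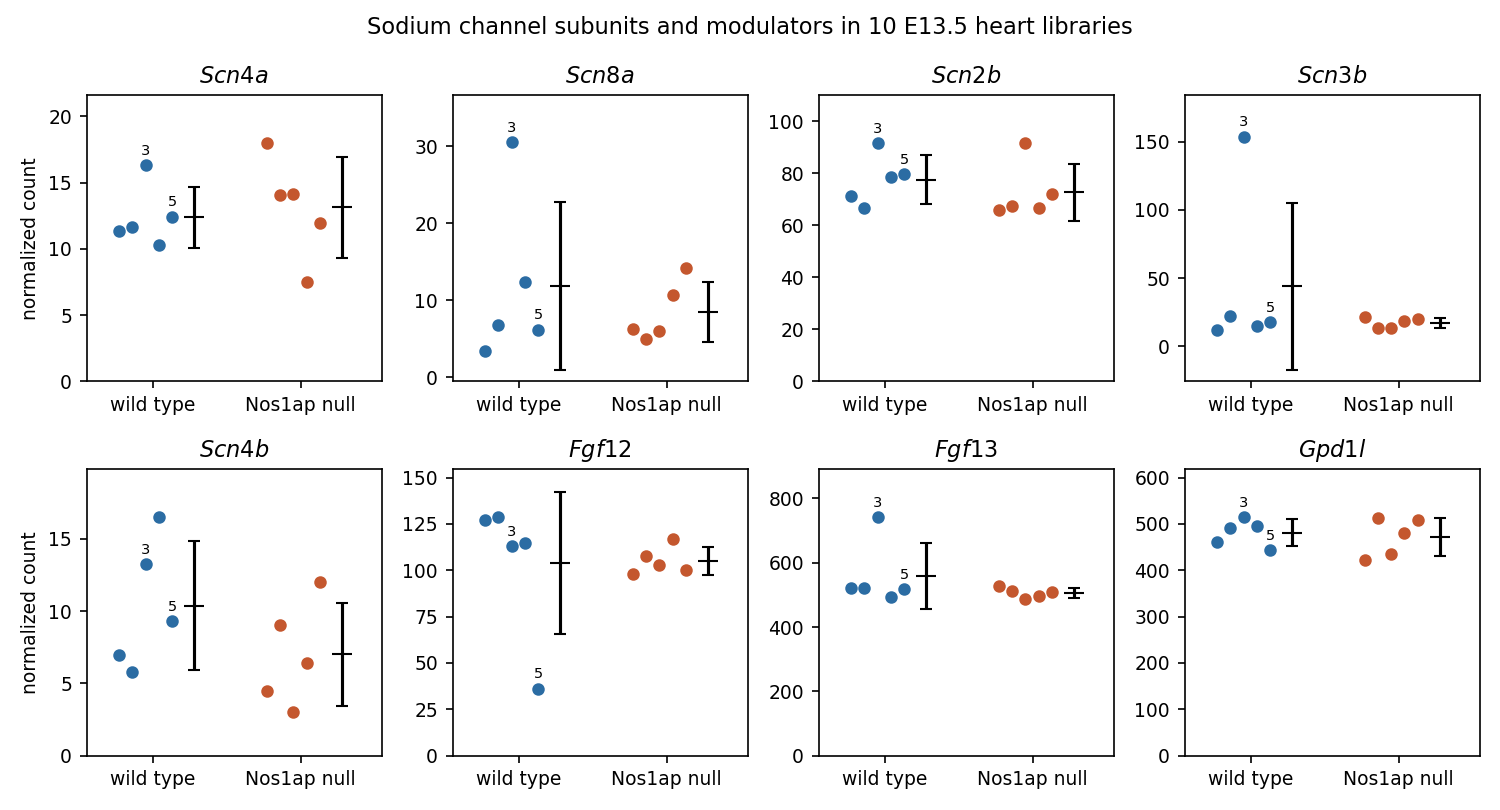
Normalized counts of each gene in every library (points, ordered by library number within a genotype) with the mean and SD of each genotype (bars, n = 5), wild-type libraries 3 and 5 being numbered. The genotypes overlap in all 8 panels, and single wild-type libraries stand off in *Scn8a*, *Scn3b*, *Fgf13* (library 3) and *Fgf12* (library 5).

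The fibroblast growth factor homologous factors differed from each other in level and in which library stood apart. *Fgf13* (ENSMUSG00000031137.17, chrX:59062145-59568071, minus strand) was read 7.87 times as much as *Fgf12* (ENSMUSG00000022523.9, chr16:28160098-28753068, minus strand) per kilobase, and it was higher in 10 of 10 libraries. *Fgf13* is on the X chromosome, of which these male embryos have a single copy. The 250 bases before the most upstream start that RefSeq gives each gene (GRCm38.p6, minus strand) are shown because the pair is set side by side here. Both windows lie upstream of the GENCODE M21 gene bounds given above, that of *Fgf13* much further than that of *Fgf12*. Whether reads from that *Fgf13* start are in its counts was not tested. Matches to motifs of heart and neuronal transcription factors are in capitals.

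Fgf13, chrX:59585573-59585822: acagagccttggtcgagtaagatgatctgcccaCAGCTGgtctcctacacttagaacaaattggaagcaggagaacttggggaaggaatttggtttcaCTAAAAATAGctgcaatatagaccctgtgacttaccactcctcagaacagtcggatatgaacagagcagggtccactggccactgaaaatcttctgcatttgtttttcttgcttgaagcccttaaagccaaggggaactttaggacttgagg
Fgf12, chr16:28753244-28753493: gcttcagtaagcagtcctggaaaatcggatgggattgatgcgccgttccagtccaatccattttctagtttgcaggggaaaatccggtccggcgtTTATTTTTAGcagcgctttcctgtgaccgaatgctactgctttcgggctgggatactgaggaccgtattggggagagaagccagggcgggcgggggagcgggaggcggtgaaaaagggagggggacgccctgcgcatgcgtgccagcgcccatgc

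The *Fgf13* window holds a MEF2 element at -152 from the start and the E-box CAGCTG at -217. The *Fgf12* window also holds a MEF2 element, at -155. MEF2 elements are held by 2.92% of 32851 mouse windows of this length, and CAGCTG by 13%. The motifs searched on both strands were MEF2 (its consensus, which starts with either pyrimidine and ends with either purine), CArG, the GATA site AGATAA, the E-boxes CAGCTG and CACGTG, and the left part of the RE1 element, TTCAGCACC, and they do not contain one another. RefSeq windows were found for 7 of the 8 genes, all but *Scn3b*, and among the 14 windows the only other match was CACGTG in that of *Gpd1l*, at -127 from its start (held by 6.02% of all windows). CArG, AGATAA and TTCAGCACC were in 0 of 14, against 1.47%, 9.99% and 0.301% of all windows. Both genes have 4 annotated starts in RefSeq, and gene-level counts do not show which was used. A match describes the letters only.

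*Fgf13* was at 522, 520, 742, 493 and 518 normalized counts in wild-type libraries 1 to 5. In the null libraries it was at 528, 513, 488, 496 and 510. Apart from wild-type library 3, all values lay between 488 and 528. The means were 559 ± 103 and 507 ± 15.6 (SD, n = 5 each), and the log2 fold change was -0.12 with a 95% interval of -0.33 to 0.078 (limma adjusted *P* = 0.997, exact permutation *P* = 0.262). Without wild-type library 3 it was -0.018, with an interval of -0.12 to 0.088. That library exceeded the next by 0.49 on the scale of log2(normalized count + 1), and the part of its neuronal transcripts in this was not tested. The null coefficient of variation of 3.08% was below the 4.48% of sampling alone, but the null counts of *Fgf13* are the most even set that gives the mean, a choice that can lower the spread. The wild-type counts of *Fgf13* come from a search that let 1 library lie apart, and this step was added after the data had been seen. It takes the set in which the other wild-type libraries lie nearest a common level. The evenness of the values outside wild-type library 3, and the narrow interval without it, therefore rest in part on these choices.

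*Fgf12* was at 127, 129, 113, 115 and 36.2 normalized counts in wild-type libraries 1 to 5. In the null libraries it was at 98.1, 108, 103, 117 and 100. Wild-type library 5 was far below the rest, at 35 counts against 92 to 146 in the others, and the other 4 wild-type values overlapped the null values. The means were 104 ± 38.5 and 105 ± 7.54 (SD, n = 5 each), with a log2 fold change of 0.14 (SE 0.336, limma adjusted *P* = 0.997, exact permutation *P* = 0.984). Without wild-type library 5 the direction turned, to -0.20 with a 95% interval of -0.40 to 0.0057 (limma across all genes, unadjusted *P* = 0.0561, adjusted *P* = 0.982). *Fgf12* in that library lay 1.41 below the next lowest on the scale of log2(normalized count + 1). Among 10226 protein-coding genes with a mean of at least 10 normalized counts, this was the 4th largest downward gap in that library. Of these genes, 8 had such a gap of at least 1. The library was not apart by the marker lists. Its neuronal sum was 271 and its glial sum 121, within the range of the others, and its skeletal muscle sum of 23.8 was the lowest of the 10.

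*Fgf13* made up 89.2% ± 4.11 of the pair per kilobase in wild type and 88.1% ± 0.944 in null (SD, n = 5 each, exact permutation *P* = 0.651). The highest share was 95.7%, in wild-type library 5, and the other wild-type libraries lay between 86.2% and 91.0%.

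*Gpd1l* (ENSMUSG00000050627.13, chr9:114899341-114933987, minus strand) was the most even of the 8 genes across the wild-type libraries. It was at 460, 491, 515, 496 and 443 normalized counts in wild-type libraries 1 to 5 and at 423, 512, 436, 480 and 509 in the null libraries. The groups overlapped over nearly their whole range. The means were 481 ± 29.1 and 472 ± 41.0 (SD, n = 5 each), and the log2 fold change was -0.030 (SE 0.0615, limma adjusted *P* = 0.997, exact permutation *P* = 0.667). The interval on the linear scale was 0.896 to 1.07, the narrowest of the 8. The counts of *Gpd1l* in both genotypes are the most even sets that give the means, so that the true spread may be larger. In wild-type library 3 *Gpd1l* was at 515, against 512 in the highest null library, and leaving it out gave a log2 fold change of -0.0051.

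**Figure D4:**
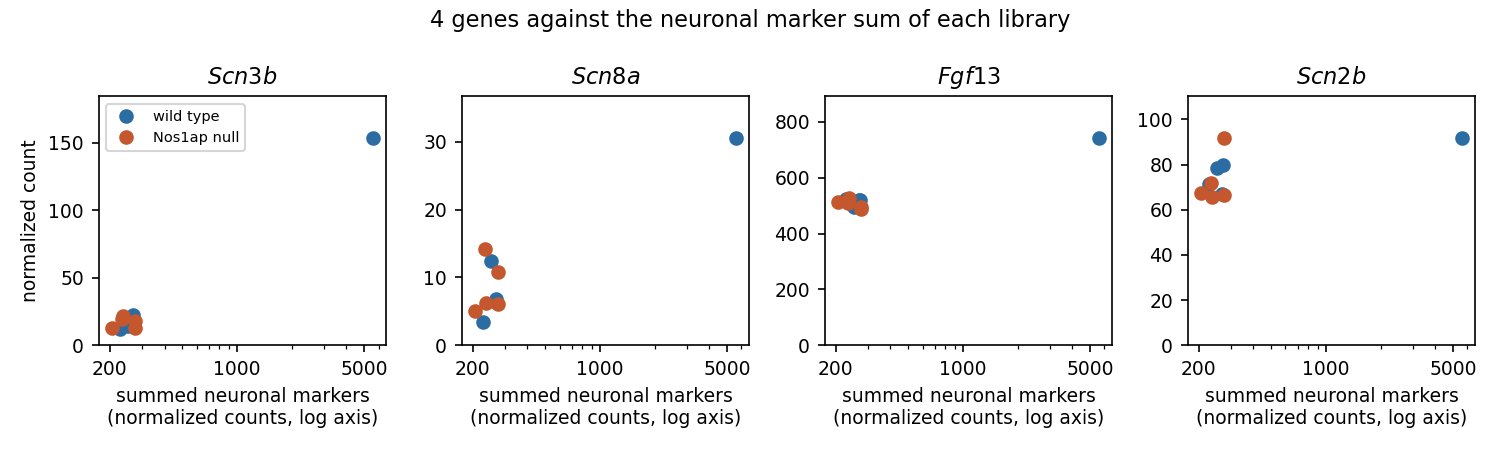
Normalized counts of *Scn3b*, *Scn8a*, *Fgf13* and *Scn2b* in each library against the sum of 13 neuronal markers in the same library (log axis), by genotype. The other 9 libraries lie together at 205 to 275 and wild-type library 3 at 5618, where *Scn3b*, *Scn8a* and *Fgf13* are at their highest and *Scn2b* (91.6) is level with null library 3 (91.7).

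Genes that bind or regulate sodium channels were also examined, as a list of 15. Counts allowed a test of 10, and 0 of 10 were called or had an unadjusted limma *P* under 0.05, against 0.0241% and 3.64% of all genes. Of the 10, 7 had a log2 fold change below 0, against 52.9% of all genes, with a median of -0.11. Without wild-type library 3 this was 5 of 10 with a median of -0.011, against 6204 of all 12468 genes with a median of 0.00051. *Scn3a*, an alpha subunit of the fetal brain, showed the lowest value at -1.35 (SE 0.907, limma adjusted *P* = 0.997), and it was at 57.0 normalized counts in that library against 0 to 7.52 elsewhere. Without the library its log2 fold change was -0.60, and that of *Nrcam*, a cell adhesion molecule of nodes of Ranvier, went from 0.14 to 0.57 (limma adjusted *P* = 0.997). *Nfasc*, which encodes a cell adhesion molecule at nodes of Ranvier, was at 146 there against at most 16.1 elsewhere, with a log2 fold change of -0.82 that became -0.095 without the library. *Scn7a*, a sodium-sensing relative of the alpha subunits, was at 91.6 there against 23.7 to 53.2. *Fgf11*, another homologous factor, was at 181 there and at 137 to 193 elsewhere, with a log2 fold change of -0.0030 (SE 0.0896). *Fgf14* was at 5.17 to 16.5 and its log2 fold change was 0.15 (SE 0.322). The channel anchor *Ank3*, the ubiquitin ligase *Nedd4l*, the kinase *Camk2d*, *Slmap* and *Ywhah* were too abundant for counts to be recovered. Their group means, which carry no error here, differed by a log2 ratio of -0.029 to 0.075.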

How the data were processed

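PolyA RNA-seq was analysed from E13.5 male hearts, 5 wild type and 5 *Nos1ap* null. The authors trimmed reads (Trimmomatic 0.36), aligned them to GRCm38 with GENCODE release M10 (STAR within RSEM 1.2.31) and compared gene-level counts with DESeq 1.24.0. The signal values that the authors deposited are counts divided by size factors and averaged over a genotype. The deposited table also holds the authors' fold change (ratio), its log2 value and p-values, which were not used.

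Whole counts per library were recovered from group means under 1000, printed to 15 digits: below a mean of 200 every set was enumerated and a single solution was accepted. Failing that, the most even set was accepted if chance would give at most 0.01 further sets as even. *Gpd1l* in both genotypes and *Fgf13* in null come from the most even set. *Fgf13* in wild type comes from a search with 1 library apart that was added after the data were seen. *Scn4a*, *Scn8a*, *Scn2b*, *Scn3b*, *Scn4b*, *Fgf12* and *Nos1ap* come from the only possible set. That search gave the counts of 22 genes in wild type and 12 in null. The wild-type means of the neuronal markers *Nefm* (311), *Tubb3* (242) and *Nefl* (221) were above 200. Their wild-type counts therefore come from the most even set or from the search with 1 library apart. Which of these served each marker is not given here, and the neuronal sum of wild-type library 3 includes them. Size factors recomputed from recovered counts differed from the derived ones by at most 0.868%.

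limma 3.58.1 (R 4.3.3, trended and robust) was fitted to log2(normalized count + 1) of 12468 protein-coding genes with mean of at least 1, with Benjamini-Hochberg adjustment over all of them. The fold change on this scale understates changes of low genes. Scripts were tested on simulated data. Exact permutation tests were two-sided over all arrangements of the 10 libraries. Named genes are the 8 genes, *Nos1ap*, and the partner and marker lists. A gene of the glial list is not reported here and was left out of its sum. The genes and lists were chosen with earlier results of these data known. Counting intervals cover counting error only. Alternatives changed the pseudocount, test, mean filter, gene types, scaling, thresholds and libraries. Exon lengths were taken from GENCODE M21, not the M10 of the counts.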

Additional observations from a re-analysis of the deposited data

Results flagged for a closer look

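In 4 of 16 groups of 5 libraries (8 genes in 2 genotypes), the gap between the most extreme library and its nearest neighbour, divided by the range of the group, exceeded Dixon's 95% critical value of 0.71. Chance gives about 1 such group in 20, but not for groups whose counts were chosen by their spread. The wild-type counts of *Fgf13* were chosen as a set with 1 library apart, which favours a high ratio. Those of *Fgf13* in null and of *Gpd1l* in both genotypes were chosen as the most even sets, so their ratios rest on that choice as well. *Scn3b* in wild type had a ratio of 0.929 and *Fgf13* in wild type 0.885, in both cases with wild-type library 3 highest, the library in which all 13 neuronal markers were highest. *Fgf12* in wild type had a ratio of 0.830, with wild-type library 5 lowest, a library whose neuronal marker sum of 271 was within the range of the others. *Scn2b* in null had a ratio of 0.763, with null library 3 highest at 91.7 normalized counts. The wild-type library 3 value of *Scn2b* was 91.6. The cause of these values was not tested.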

How the results depend on the processing

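No sodium channel gene was called under any of the alternatives run, whether the pseudocount was 0.5, the test was voom, the mean was required to be at least 5 or 10, all gene types were fitted, libraries were rescaled by the median (a shift of 0.0016), the false discovery rate was 5% or 10%, or a library was left out. *Scn4b* was not fitted at a mean of at least 10. Leaving out genes recovered with 1 library apart, an alternative chosen after seeing the data, removed *Fgf13* and left 3 calls among 12440 genes. The number of genes called was 3, between 2 and 3 with a library left out, and 454 at an unadjusted p under 0.05. No log2 fold change of the 8 genes changed direction except with a library left out. Those ranges were -0.072 to 0.22 for *Scn4a*, which was below 0 without wild-type library 4 (-0.010) and without null library 1 (-0.072), -0.48 to 0.22 for *Scn8a*, -0.84 to 0.046 for *Scn3b*, -0.20 to 0.25 for *Fgf12*, and -0.061 to 0.0080 for *Gpd1l*, highest without null library 1. Per kilobase of the longest annotated transcript, *Fgf13* was at 213, *Gpd1l* at 108 and *Fgf12* at 25.3, in the same order. No paired analysis was possible because the deposited group means carry no replicate numbers. *Scn4a*, *Scn8a* and *Scn4b* had 3 to 30 counts a library, and the wild-type spread of *Scn8a* (coefficient of variation 92.0%) exceeded the 28.8% of counting error. Levels per kilobase depend on which transcripts are expressed.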
